A study of Mus musculus with 80 samples.

Results

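The bone morphogenetic protein (BMP) ligands and receptors examined here were 10 genes, Bmp8b, Bmp8a, Bmp2, Bmp3, Bmp4, Bmp6, Bmp7, Bmpr1a, Bmpr2 and Acvr1, taken by name from the 32764 genes of a mouse RNA sequencing study. RNA came from 2 fat depots, brown adipose tissue (BAT) and the inguinal white depot (iWAT), and from liver and muscle of male mice. The genotypes were WT, UCP1 KO, FGF21 KO and the double KO written UCP1/FGF12 (dKO). Each combination of tissue and genotype had 5 libraries, which makes 80. The labels spell the second gene of the double knockout FGF12, while the series title, the methods and the Fgf21 counts below name FGF21. The mice were homozygous and on a C57BL/6J background, and each deletion was carried by the whole animal. All of them, WT included, had lived at 30 °C until the age of 10 to 12 weeks, and were then kept at room temperature on a high-fat diet (HFD) for 3 weeks, with food removed 2 to 3 h before tissue collection. The question was how the loss of UCP1, the uncoupling protein of brown fat, and of the hormone FGF21 changed the tissues. Nothing in the labels links the libraries of 1 mouse, and replicate numbers only name libraries in the order of deposition.

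BMPs are secreted dimers of the TGF-beta family. They bring together type I receptors such as Bmpr1a and Acvr1 with type II receptors such as Bmpr2, and the active receptor phosphorylates Smad1, Smad5 and Smad9, which enter the nucleus with Smad4 and switch on genes such as Id1 and Id3. In adipose tissue Bmp2 and Bmp4 are known to commit precursors to the fat lineage, Bmp7 to favour brown adipocyte formation, and Bmp8b to be made by brown adipocytes and to raise their response to sympathetic stimulation.

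The libraries held between 28691377 and 50380696 reads counted on genes. Fgf21 was counted 353 to 1728 times in the BAT libraries of UCP1 KO mice, 7 to 10 times in WT, and 0 to 3 times in FGF21 KO and dKO mice. Reads over Ucp1 were fewer in BAT of UCP1 KO mice (24291 to 60779) than in WT (98548 to 216085) but not absent. In iWAT they were more in UCP1 KO (3942 to 20264) than in WT mice (109 to 776), against the direction of the label, so the Ucp1 row does not show the deletion itself. Markers of other cells differed between libraries. In BAT the skeletal muscle score, which is the mean of log2(CPM + 0.1) over 10 muscle genes, ranged from 1.40 to 3.49 in WT, 1.52 to 5.24 in FGF21 KO, 2.51 to 9.67 in UCP1 KO and 2.99 to 8.73 in dKO mice. In iWAT the lymph node score over 8 B and T cell genes was at most 1.78 in 11 libraries and at least 6.45 in the other 9, which were 2 of WT, 4 of FGF21 KO, 1 of UCP1 KO and 2 of dKO mice.

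Bmp8b and Bmp8a both lie on chromosome 4 (GRCm38), Bmp8b at chr4:123105165-123132099 on the plus strand and Bmp8a at chr4:123312645-123343252 on the minus strand. Over the 1197 bases of their aligned coding sequences they were identical at 1053 (88%) and differed at 144. The stretch of coding bases 15 to 74, near the start of both, is shown because it is one of the places where reads of both genes can be told apart, with the 16 bases that differ in capitals:
Bmp8b: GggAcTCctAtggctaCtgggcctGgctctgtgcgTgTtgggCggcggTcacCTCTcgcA
Bmp8a: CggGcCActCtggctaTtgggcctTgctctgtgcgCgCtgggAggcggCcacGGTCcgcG

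The longest identical run was 182 bases, at coding bases 451 to 632, longer than a read of 100 bases. Of the 2841 windows of 100 bases in the Bmp8b transcript, 109 (3.84%) occurred unchanged in a Bmp8a transcript, so that a small part of the reads of either gene could be ambiguous. The 250 bases before each RefSeq start (GRCm38.p6) are shown because these relatives had opposite levels in the 2 fat depots and because Bmp8b gave the widest difference between genotypes. No letters are in capitals, as none of the motifs searched was found in either one. The first promoter lies at chr4:123104911-123105160 on the plus strand and the second at chr4:123343253-123343502 on the minus strand, both written 5′ to 3′:
Bmp8b promoter: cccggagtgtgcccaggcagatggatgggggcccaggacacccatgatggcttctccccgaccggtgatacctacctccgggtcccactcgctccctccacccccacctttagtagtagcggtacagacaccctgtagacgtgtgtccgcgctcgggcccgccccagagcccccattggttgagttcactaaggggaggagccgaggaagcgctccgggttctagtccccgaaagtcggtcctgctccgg
Bmp8a promoter: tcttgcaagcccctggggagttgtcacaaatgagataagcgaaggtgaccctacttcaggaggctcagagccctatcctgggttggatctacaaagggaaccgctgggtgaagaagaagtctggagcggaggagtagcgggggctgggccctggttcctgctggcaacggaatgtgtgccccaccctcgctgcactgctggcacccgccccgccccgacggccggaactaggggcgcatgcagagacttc

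The Bmp8b promoter had 65.2% G and C and 17 CpG pairs, and the Bmp8a promoter 62% and 12, where the median over 27025 promoters was 52%. The motifs, searched on both strands, were the full cAMP response element TGACGTCA (in 1.62% of all promoters), its shorter form TGACG, which lies within it (17.9%), the E-box CACGTG (6.05%) and the letters GGCGCC of BMP-responsive Smad elements (9.54%). Among the 7 members with a promoter sequence, CACGTG was found for Bmp4 and Bmp6 and GGCGCC for Bmpr1a and Bmpr2.

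Levels of different genes were compared as CPM, a count relative to the scaled library total, on 1 scale for all 80 libraries, divided by the exon length in kilobases (CPM per kb, mean ± SD, n = 5). In BAT of WT mice the receptors and Bmp6 stood highest. Bmpr1a was at 6.59 ± 0.330 and Bmp6 at 6.58 ± 0.526, which did not differ beyond their spread, followed by Bmpr2 at 3.69 ± 0.223 and Acvr1 at 2.46 ± 0.327. The other ligands were lower by at least 1 order of magnitude than Bmp6, with Bmp4 at 0.487 ± 0.105, Bmp2 at 0.467 ± 0.133 and Bmp8b at 0.207 ± 0.130 CPM per kb. Bmp4 and Bmp2 overlapped, as did Bmp3 (0.124 ± 0.0385) and Bmp7 (0.114 ± 0.0330). Bmp8a was close to absent, with 0 to 3 reads in every BAT library of every genotype. It was the only member that did not pass the filter on low counts in BAT, so 9 members were tested there and 10 in iWAT.

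In iWAT of WT mice Bmpr1a was again highest (8.54 ± 1.80 CPM per kb), followed by Acvr1 (4.74 ± 1.59), Bmp3 (3.13 ± 1.77), Bmpr2 (2.98 ± 0.481) and Bmp6 (2.50 ± 0.959), of which the last 4 overlapped with their neighbours. Bmp8b was lowest, at 0.00414 CPM per kb, from 5 reads in 5 libraries. The 2 depots of WT mice therefore differed in their ligands. In the fit over all libraries (18297 genes, edgeR quasi-likelihood test, Benjamini-Hochberg adjustment), 8 of the 10 members were called at an adjusted p under 0.01 between BAT and iWAT, where 55.8% of all genes were called (25% higher in BAT and 30.8% lower). Bmp8b was higher in BAT, with 129 reads in 5 libraries against 5 in iWAT, a ratio of 49.9 after scaling (95% exact counting interval 20.9 to 156, which leaves out the spread between libraries). Bmp6 was also higher in BAT, by 1.40 ± 0.252 (SE) on the log2 scale (adjusted p = 1.94e-06).

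Bmp8a had the opposite pattern to Bmp8b, with 174 reads in iWAT and 2 in BAT, a ratio of 45.0 (95% exact counting interval 12.3 to 374). Bmp3, an unusual ligand known to oppose other BMPs, was lower in BAT than in iWAT by -4.65 ± 0.463 (SE) on the log2 scale (adjusted p = 6.69e-14), and Bmp7 by -3.81 (adjusted p = 8.11e-13). Bmp4 (-1.84), Bmp2 (-1.24) and the type I receptor Acvr1 (-0.94) were lower in BAT as well, while Bmpr1a (-0.37, adjusted p = 0.0463) and Bmpr2 (0.31, adjusted p = 0.0151) were not called. Each value is a difference in log2 level of BAT relative to iWAT. In the other tissues of WT mice Bmp2 was highest in liver (4.34 ± 0.883 CPM per kb) and both Bmpr1a (22.9 ± 1.25) and Bmpr2 (8.32 ± 0.406) were highest in muscle.

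**Figure D1:**
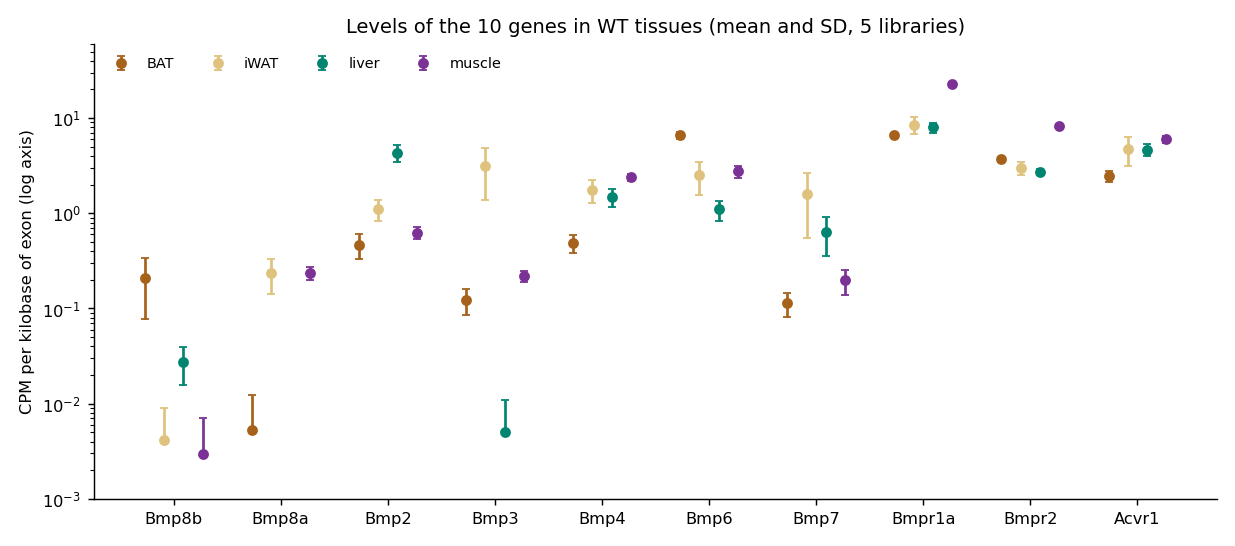
Level of each BMP ligand and receptor in the 4 tissues of WT mice, as CPM per kb of exon on a logarithmic axis, mean ± SD of 5 libraries. A mean of 0 (Bmp8a in liver) is not drawn, and a lower bar is left out where the SD reaches the mean. Bmp8b and Bmp8a trade places between BAT and iWAT, and the receptors lie near the top in each tissue.

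Bmp8b gave the widest difference between genotypes. In BAT of WT mice its level was 1.25, 1.51, 0.28, 0.488 and 0.637 CPM scaled within the tissue, and in FGF21 KO mice it was 0.527, 0.8, 0.484, 0.381 and 0.907. In UCP1 KO mice it was 10.9, 14.3, 24.9, 28.7 and 32.2 CPM, and in dKO mice 14.7, 19.1, 7.21, 6.56 and 16.8. Every library without UCP1 was above every library with it, and the lowest of the former, at 6.56, was over 4 times the highest of the latter. Groups that did not overlap were seen for 23.5% of all genes between UCP1 KO and WT and for 18.6% between dKO and FGF21 KO mice. These shares are for 5 against 5 libraries, and none was counted for all libraries without UCP1 against all with it. The mean rose from 0.832 ± 0.523 in WT to 22.2 ± 9.22 CPM in UCP1 KO mice (SD, n = 5 each), and from 0.62 ± 0.223 in FGF21 KO to 12.9 ± 5.7 in dKO mice.

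In the fit of the 20 BAT libraries, Bmp8b in UCP1 KO compared to WT mice differed by 4.73 ± 0.447 (SE) on the log2 scale, 26.6-fold (95% interval 3.8 to 5.67 in log2, edgeR adjusted p = 6.57e-07). In dKO compared to FGF21 KO mice the difference was 4.37 ± 0.449, 20.7-fold (edgeR adjusted p = 2.62e-06). The 2 effects were not distinguishable, since the interaction was 0.37 ± 0.606 (edgeR adjusted p = 0.981). The level in UCP1 KO was 0.79 ± 0.363 above that in dKO mice on the log2 scale, with an interval of 0.03 to 1.55 (edgeR adjusted p = 0.37, exact two-sided permutation p = 0.119), and these groups overlapped. Without FGF21 alone, Bmp8b differed from WT by -0.42 ± 0.481 (edgeR adjusted p = 0.892). Per length, Bmp8b moved from 7th of the 10 genes in WT to 5.59 ± 2.33 CPM per kb in UCP1 KO mice, beside Bmp6 at 4.0 ± 0.557 and Bmpr2 at 3.55 ± 0.266, from which it did not differ beyond its spread.

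**Figure D2:**
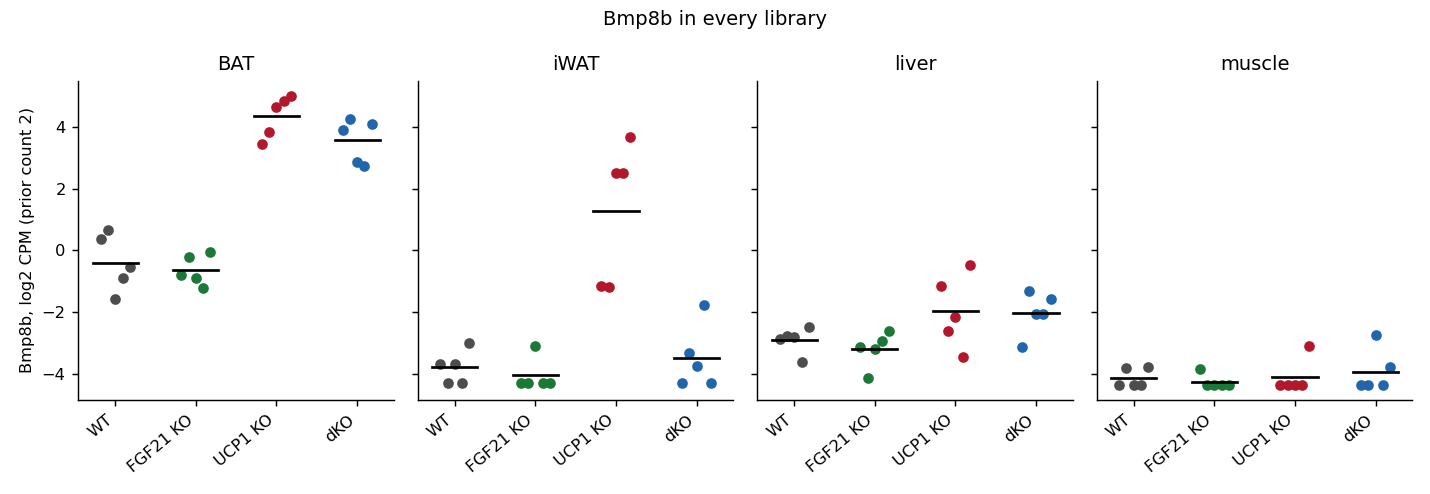
Bmp8b in each of the 80 libraries, as log2 CPM with a prior count of 2, by genotype in 4 tissue panels. Points are libraries and bars are means of 5. In BAT both genotypes without UCP1 lie apart from both with it, and in iWAT the 5 UCP1 KO libraries lie above the rest, the nearest of which is 1 dKO library with 10 reads.

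Bmp6, the most abundant ligand of WT BAT and the one known to drive hepcidin in liver, moved the other way. Its level was 28.6, 25.2, 28.9, 25.8 and 24.1 CPM in WT and 19, 22.5, 23.6, 25.9 and 20.8 CPM in FGF21 KO mice. In UCP1 KO mice it was 16.6, 12.7, 14.8, 18.1 and 17.7 CPM, and in dKO mice 16, 15.2, 14.3, 14 and 16.5. All 10 libraries without UCP1 were below all 10 with it, although the lowest FGF21 KO library was within 1 CPM of the highest UCP1 KO library. Between UCP1 KO and WT 23.5% of all genes had groups that did not overlap, and between dKO and FGF21 KO mice 18.6% did. No share was counted for 10 against 10 libraries. Bmp6 fell by 0.73 ± 0.0970 on the log2 scale in UCP1 KO compared to WT mice, to 0.603 of the WT level (edgeR adjusted p = 1.84e-05), and by 0.56 ± 0.0970 in dKO compared to FGF21 KO mice (edgeR adjusted p = 0.000479). Against library totals with no scaling factor the latter was -0.33 (edgeR adjusted p = 0.039), and with the muscle score as a covariate it was -0.42 (edgeR adjusted p = 0.0127), neither of which passes 0.01. The interaction was -0.18 (edgeR adjusted p = 0.938).

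Bmp8b and Bmp6 were 2 of the 9 tested members called in UCP1 KO compared to WT mice, 1 higher and 1 lower, against 25.2% of all 15729 genes tested (13.8% higher and 11.4% lower). The same 2 were called in dKO compared to FGF21 KO mice, where the background was 13.5% (6.74% higher and 6.8% lower), in dKO compared to WT mice (21.1%) and in UCP1 KO compared to FGF21 KO mice (22.4%). The share of members called was thus near that of all genes, and their median difference in UCP1 KO compared to WT mice was -0.07 against 0.01 over all genes. None was called in UCP1 KO compared to dKO mice by edgeR (0.0636% of all genes, 1 member at an unadjusted p under 0.05) or by DESeq2. None was called by edgeR in FGF21 KO compared to WT mice either (0% of all genes, 2 members at an unadjusted p under 0.05). At that unadjusted p there were 2035 and 1345 of the 15729 genes in these 2 comparisons. When the muscle score was a covariate, the Bmp8b difference between UCP1 KO and WT was 5.05 (edgeR adjusted p = 3.67e-07) and the Bmp6 difference -0.64 (edgeR adjusted p = 0.000119).

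The remaining ligands in BAT were low and not called. Bmp2 was at 1.71 ± 0.482 CPM in WT and 1.23 ± 0.219 in UCP1 KO mice, Bmp3 at 0.945 ± 0.291 and 1.23 ± 0.623, Bmp4 at 1.13 ± 0.248 and 0.928 ± 0.293, and Bmp7 at 0.474 ± 0.138 and 0.473 ± 0.363, with overlapping groups for each. The 95% intervals of their log2 differences were -0.99 to 0.03 for Bmp2, -0.37 to 1.13 for Bmp3, -0.81 to 0.23 for Bmp4 and -0.90 to 0.87 for Bmp7. A change of Bmp7 by up to about that size was thus not detectable with these libraries. Bmp7 had 8 to 42 reads in a UCP1 KO library, and counting error and the spread between libraries were not separated.

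The receptors in BAT were measured more tightly. Bmpr1a, the type I receptor through which Bmp2 and Bmp4 act, was at 43.2 ± 2.07 CPM in WT and 44 ± 8.37 in UCP1 KO mice, a log2 difference of 0.02 with an interval of -0.19 to 0.24. Bmpr2, the shared type II receptor, was at 68.5 ± 4.39 and 65.4 ± 4.95 CPM, a difference of -0.07 with an interval of -0.23 to 0.10. Acvr1, a type I receptor used by Bmp6 and Bmp7, was at 12.3 ± 1.59 and 10.8 ± 1.01 CPM, a difference of -0.18 with an interval of -0.39 to 0.04. No interval of the 3 receptors reached a log2 difference of 0.5 in either direction, while Bmp8b differed by 4.73.

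**Figure D3:**
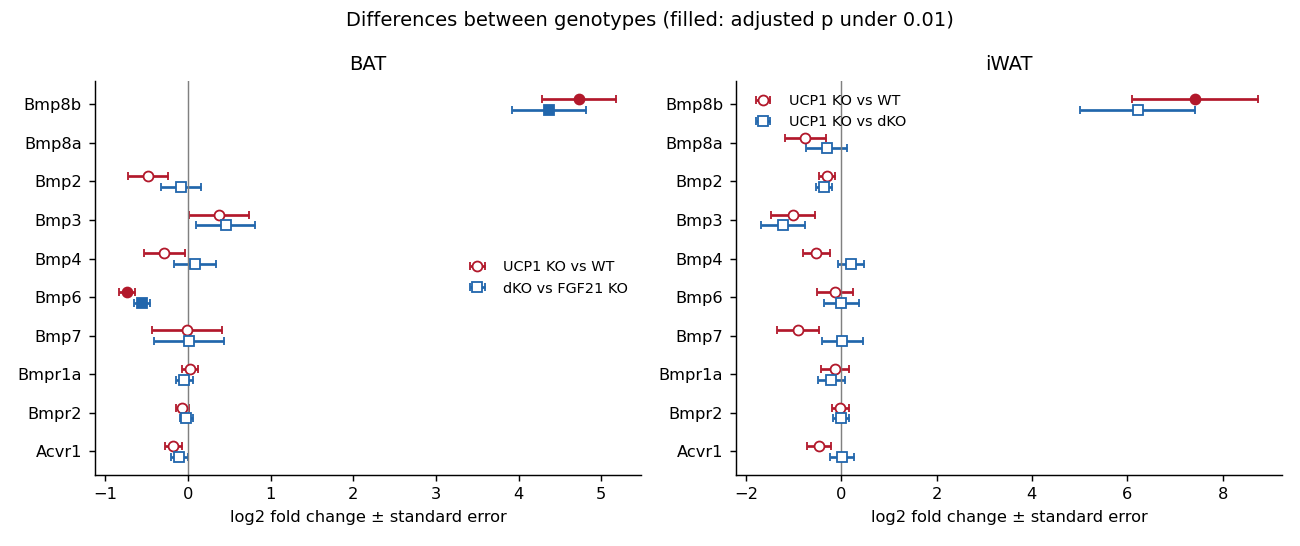
Log2 difference ± SE of each BMP ligand and receptor in BAT (UCP1 KO vs WT, dKO vs FGF21 KO) and in iWAT (UCP1 KO vs WT, UCP1 KO vs dKO), from fits of 20 libraries each. Filled points have an adjusted p under 0.01, and Bmp8a was not tested in BAT. Bmp8b lies far to the right in all 4 comparisons, and Bmp6 lies left of 0 in BAT.

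In iWAT, Bmp8b was near 0 in all but 1 library of 3 genotypes and present in the fourth. It was counted 1, 0, 1, 0 and 3 times in WT, 0, 0, 3, 0 and 0 times in FGF21 KO, and 0, 2, 1, 10 and 0 times in dKO mice. In UCP1 KO mice it was counted 13, 15, 151, 165 and 347 times, or 0.4, 0.387, 5.57, 5.56 and 12.6 CPM. Each UCP1 KO library was above each library of the other genotypes, by a small margin for the first 2 of them and by a wide one for the other 3. Between UCP1 KO and WT mice 3.83% of all genes had groups that did not overlap. The mean of 4.9 ± 5.01 CPM was smaller than its SD. Summed over libraries and scaled, the ratio to WT was 174 (691 against 5 reads, 95% exact counting interval 74.0 to 536), to FGF21 KO 333 (691 against 3 reads, 113 to 1618) and to dKO mice 71.8 (691 against 13 reads, 41.7 to 136). These intervals cover counting error only. Bmp8b passed the filter on low counts in iWAT through its UCP1 KO libraries alone, so its call among the genes that passed is no support on its own, and values without that filter are given for the comparisons with WT and dKO mice.

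Across libraries, Bmp8b in UCP1 KO compared to WT mice differed by 7.41 ± 1.32 (SE) on the log2 scale (edgeR adjusted p = 0.00588), and by 7.40 with no filter on low counts (edgeR adjusted p = 0.0068). None of the other 9 members was called by edgeR, where 0.61% of 17380 genes were, and Bmp3 alone of these had an unadjusted p under 0.05. Compared to FGF21 KO mice the difference was 8.21 ± 1.39, given as a description since no fit without the filter was made, and none of the other 9 was called by edgeR (3.76% of all genes, Bmp6 alone at an unadjusted p under 0.05). Compared to dKO mice it was 6.21 ± 1.21 (edgeR adjusted p = 0.0124, and 0.0151 with no filter), which did not pass 0.01, so that no member was called by edgeR (0.466% of all genes, 3 members at an unadjusted p under 0.05), and 1, Bmp8b, by DESeq2 (adjusted p = 8.71e-05). In dKO mice Bmp8b was not called against WT (1.20 ± 1.35, edgeR adjusted p = 0.999, background 0.0173%) or against FGF21 KO mice (1.99 ± 1.43, edgeR adjusted p = 0.543, background 0.0115%). The latter difference ranged from 0.34 to 4.36 when 1 library at a time was left out (edgeR adjusted p of 0.331 to 0.929). In FGF21 KO compared to WT mice no member was called by edgeR either (background 0.00575%), and in each of these 3 comparisons 2 members had an unadjusted p under 0.05. An unadjusted p under 0.05 was reached by 2551 of the 17380 genes for UCP1 KO against WT mice. It was reached by 5558 for UCP1 KO against FGF21 KO and by 2475 for UCP1 KO against dKO mice. The numbers were 1027 for dKO against WT, 1499 for dKO against FGF21 KO and 3023 for FGF21 KO against WT mice. The iWAT call against WT was lost when any 1 of 9 libraries was left out, namely each WT library, FGF21 KO replicate 3 or UCP1 KO replicate 3, 4 or 5, with log2 differences of 6.70 to 8.23 and adjusted p of 0.00121 to 0.0271 over all 20 omissions.

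The call against dKO mice appeared without UCP1 KO replicate 1 or 2 or dKO replicate 4, with differences of 5.5 to 7.87 and adjusted p of 0.00247 to 0.0448 over the 20 omissions. In the 11 libraries of low lymph node score alone, Bmp8b in UCP1 KO mice differed from WT by 8.06 and from dKO mice by 5.82 in log2. The interaction between the 2 deletions in iWAT was 5.42 ± 2.45 (unadjusted p = 0.0405, edgeR adjusted p = 0.47). Markers of brown adipocytes were also higher in iWAT of UCP1 KO mice. The brown adipocyte score over 6 genes, Ucp1 among them, was 6.6, 5.2, 6.91, 6.78 and 8.05 in UCP1 KO mice, against 1.61 to 2.91 in WT, 0.01 to 2.73 in FGF21 KO and 1.36 to 3.87 in dKO mice. Of the 6 genes 4 (Cidea, Cox7a1, Dio2 and Elovl3) were called against WT (0.61% of all genes). Against dKO mice 2 of the 6 were called (0.466% of all genes). More brown-like cells and more Bmp8b per cell cannot be told apart in such bulk samples, and the part of these cells in the Bmp8b difference was not tested.

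The difference between UCP1 KO and dKO mice in iWAT was set against that in BAT within the 80-library fit. For Bmp8b the iWAT difference was larger by 5.41 ± 0.902 in log2 (edgeR adjusted p = 1.69e-05), the only one of 10 members called where 3.75% of all genes were called. It ranged from 4.69 without iWAT UCP1 KO replicate 5 to 6.99 without iWAT dKO replicate 4, and stayed called in each of the 20 omissions. The effect of UCP1 loss in BAT was not called different from that in iWAT (-2.61 ± 1.04, edgeR adjusted p = 0.0676, with 0 of 10 members called by edgeR and by DESeq2 and 2 at an unadjusted p under 0.05, background 10.5%). With no scaling factor 4 members (Acvr1, Bmp3, Bmpr1a and Bmpr2) were called. The 10.5% belongs to an adjusted p under 0.01 with TMM factors. The share of all genes called without a factor was not counted, so these 4 calls are a description. In fits of each tissue without a factor, the median log2 difference of all genes between UCP1 KO and WT mice was 0.31 in BAT and -0.19 in iWAT. The Bmp8b value ranged from -3.37 without iWAT WT replicate 5 to -1.89 without iWAT UCP1 KO replicate 5, with adjusted p of 0.0205 to 0.202 over the 20 omissions.

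Bmp8a, the close relative of Bmp8b, was not called in iWAT. In iWAT it was at 1.47, 0.577, 0.917, 0.669 and 0.872 CPM in WT and at 0.707, 0.542, 0.0738, 0.539 and 0.798 CPM in UCP1 KO mice. The groups overlapped, and the UCP1 KO values were on the low side of the WT values, with 1 library near 0. The log2 difference was -0.75 with an interval of -1.66 to 0.16 (edgeR adjusted p = 0.475). In BAT it stayed at 0 to 3 reads also in the UCP1 KO and dKO libraries where Bmp8b had 255 to 1476 reads.

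**Figure D4:**
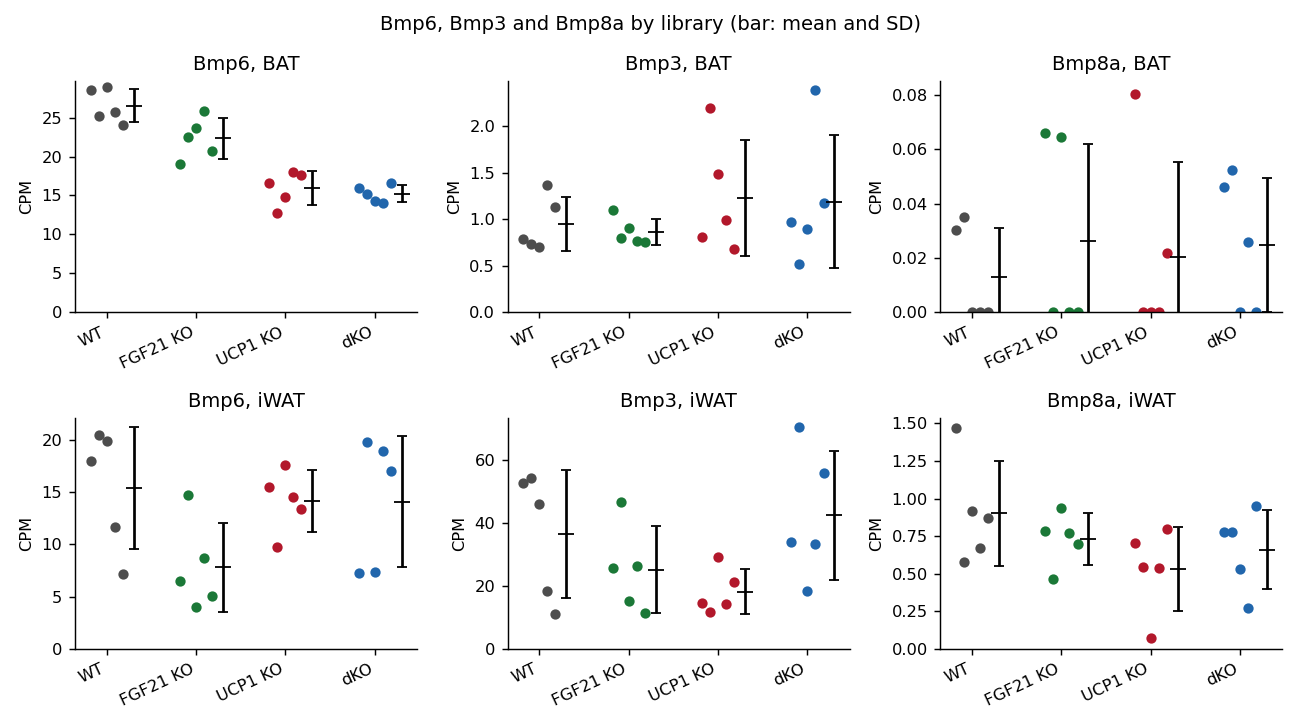
Bmp6, Bmp3 and Bmp8a in each library of BAT and iWAT, in CPM scaled within the tissue, by genotype, with the mean and SD of 5 libraries. Bmp6 in BAT is lower in both genotypes without UCP1, Bmp3 varies widely within each iWAT genotype, least so in UCP1 KO, and Bmp8a is close to 0 in BAT.

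The other ligands in iWAT were not called. Bmp3 was at 53, 54.3, 46.2, 18.3 and 11.1 CPM in WT mice, at 14.7, 11.7, 29.3, 14.2 and 21.3 CPM in UCP1 KO mice, and at 34.1, 70.6, 18.4, 33.3 and 55.9 CPM in dKO mice. The UCP1 KO libraries were all under 30 CPM but lay within the range of WT. The log2 difference was -1.0 ± 0.466 to WT (edgeR adjusted p = 0.322) and -1.22 ± 0.468 to dKO mice (edgeR adjusted p = 0.211), and the interaction was -1.76 (unadjusted p = 0.0154, edgeR adjusted p = 0.379). When the lymph node score was a covariate, Bmp3 was called against dKO mice beside Bmp8b.

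Bmp2 was at 4.74, 4.78, 5.39, 5.66 and 4.75 CPM in UCP1 KO and at 5.99, 6.99, 6.4, 6.98 and 6.03 CPM in dKO mice. These groups did not overlap (exact two-sided permutation p = 0.00794, the smallest that 5 against 5 allows), as was the case for 2.09% of all genes. The difference was small, -0.36 ± 0.166 on the log2 scale, and did not pass the test over all genes (edgeR adjusted p = 0.343). In WT mice Bmp2 spanned both groups, at 8.06, 6.7, 6.9, 4.98 and 4.38 CPM.

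Bmp4 was at 6.24 ± 1.56 CPM in WT and 4.35 ± 1.54 in UCP1 KO mice, Bmp7 at 10.2 ± 6.57 and 5.43 ± 3.05, and Bmp6 at 15.4 ± 5.82 and 14.2 ± 2.94, none of them called. In FGF21 KO mice Bmp6 was at 7.79 ± 4.28 CPM and Acvr1 at 21.8 ± 5.71 against 36.2 ± 12 in WT, with log2 differences of -0.99 (edgeR adjusted p = 0.253) and -0.73 (edgeR adjusted p = 0.247). The receptors did not differ between UCP1 KO and WT beyond their spread. Bmpr1a was at 78.7 ± 16.2 against 85.9 ± 17.3 CPM, Bmpr2 at 84 ± 11.3 against 84.9 ± 12.9, and Acvr1 at 26.2 ± 7.05 CPM, with intervals of -0.73 to 0.48, -0.39 to 0.36 and -0.98 to 0.05 on the log2 scale.

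Some members in iWAT differed between libraries of low and high lymph node score. Bmpr1a ranged from 77.0 to 129 CPM in the 11 libraries with a low score and from 40.6 to 73.3 in the 9 with a high one. Bmpr2 ranged from 86.1 to 109 and from 61.6 to 73.4 CPM, and Bmp6 from 13.4 to 20.5 and from 3.98 to 11.6 CPM. For these 3 genes the 2 sets of libraries did not overlap, whereas they overlapped for the other 7 members, a share near the 29.1% of all genes whose 2 sets did not overlap. FGF21 KO mice, with 4 of the 9 libraries of high score, had the lowest means of Bmp6, Bmpr1a and Bmpr2, and the part of lymph node cells in the genotype values was not tested beyond the covariate and the libraries of low score above.

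In liver and muscle no member was called in any comparison of genotypes by edgeR. Between UCP1 KO and WT mice 0 of 8 members were called in liver (background 0.0694%, 2 at an unadjusted p under 0.05) and 0 of 9 in muscle (background 0.0265%, 1 at an unadjusted p under 0.05), and DESeq2 was not run there. At that unadjusted p there were 1470 of 14407 genes in liver and 1482 of 15114 in muscle. Liver Bmp8b was counted 3, 3, 3, 1 and 4 times in WT, 2, 0, 2, 3 and 4 times in FGF21 KO, 12, 3, 5, 1 and 20 times in UCP1 KO, and 2, 14, 7, 5 and 10 times in dKO mice. The counts overlapped between all 4 genotypes, with the highest ones in mice without UCP1, and the gene passed the filter in liver through its UCP1 KO libraries alone. Its log2 difference was 1.75 ± 0.645 in UCP1 KO compared to WT mice (edgeR adjusted p = 0.307, exact two-sided permutation p = 0.151) and 1.79 ± 0.679 in dKO compared to FGF21 KO mice (edgeR adjusted p = 0.631). These values are a description, since no fit without the filter was made in liver. In muscle Bmp8b had 0 to 4 reads and Bmp8a 8 to 52 reads in a library.

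The members' values were set beside 65 other genes of the pathway in 5 lists, of which 53 were tested in BAT and 55 in iWAT. In BAT of UCP1 KO compared to WT mice 15 of 53 (28.3%) were called, 3 higher and 12 lower, where 25.2% of all genes were called. In dKO compared to FGF21 KO mice 8 (15.1%) were called, 2 higher and 6 lower, where 13.5% of all genes were. Both shares were near the background. The median log2 differences in UCP1 KO compared to WT mice were -0.44 for the other ligands, -0.21 for receptors and coreceptors, -0.06 for antagonists and modulators, -0.16 for mediators and -0.50 for targets, against 0.01 over all genes. The split by direction depended on the scaling. Against library totals with no scaling factor the median of all genes in BAT moved from 0.01 to 0.31, and 12 pathway genes were called, 8 higher and 4 lower, of which 7 were among the 15. That was 22.6% of the 53, where 36.2% of all genes were called in this setting. When the muscle score was a covariate, 11 were called, 3 higher and 8 lower, of which 10 were among the 15. That was 20.8%, where 21% of all genes were called. In both settings each of the 15 kept the sign of its difference. These settings were chosen after seeing the data.

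Of the other ligands, 6 of 10 were tested in BAT and 3 were called in UCP1 KO compared to WT mice, where 25.2% of all genes were. Gdf5, a ligand related to BMPs and known to favour brown fat formation, fell from 4.0 ± 0.518 to 0.782 ± 0.444 CPM (-2.37 ± 0.423 on the log2 scale, edgeR adjusted p = 0.00029). Bmp5, a close relative of Bmp6 and Bmp7, fell from 3.45 ± 0.573 to 1.5 ± 0.224 CPM (-1.20 ± 0.171, edgeR adjusted p = 3.77e-05). Gdf3, known as a ligand and as an inhibitor of BMPs, had 0 to 2 reads in WT and 4 to 25 reads in UCP1 KO libraries. It passed the filter through the libraries without UCP1 alone, so these reads are a description, although the counts of 3 and of 15 called genes include it. Gdf5 and Bmp5 were also lower in dKO compared to FGF21 KO mice (-2.09 and -0.86), where Bmp5 differed by -0.63 without a scaling factor and was not called (edgeR adjusted p = 0.0104). Gdf3 was not called there.

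All 11 other receptors and coreceptors were tested, and 3 were called, all of them lower in UCP1 KO than in WT BAT, where 11.4% of all genes were called lower. Rgma, a coreceptor of the repulsive guidance family that enhances BMP signalling, fell from 21.9 ± 3.25 to 8.73 ± 1.59 CPM (-1.33 ± 0.140, edgeR adjusted p = 1.97e-06). Its relative Rgmb fell by 0.53 and the coreceptor Tgfbr3 by 0.52 on the log2 scale. Rgma and Rgmb were lower in dKO compared to FGF21 KO mice as well (-0.90 and -0.31). Rgma kept its call in both comparisons without a scaling factor, whereas Rgmb (edgeR adjusted p = 0.087 and 0.579) and Tgfbr3 (edgeR adjusted p = 0.172) did not. With the muscle covariate the latter Rgmb difference was again -0.31 but was not called (edgeR adjusted p = 0.0332).

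Of the antagonists and modulators 15 of 20 were tested and 3 called, against the same 25.2%. Fstl3, which binds activins and related ligands, was higher by 1.21 ± 0.232 in log2 (edgeR adjusted p = 0.000553), Dand5, an antagonist of the DAN family, fell by 0.83 (edgeR adjusted p = 0.000505), and the protease Htra1 fell by 0.42 (edgeR adjusted p = 0.00526). Without a scaling factor Htra1 differed by -0.12 and was not called (edgeR adjusted p = 0.48). Noggin (Nog), the classical antagonist, differed by 2.39, with 1 to 92 reads in UCP1 KO and 2 to 5 in WT libraries, and was not called (edgeR adjusted p = 0.0162). Of the 12 intracellular mediators, Smad9, a receptor-activated Smad, fell by 1.14 (edgeR adjusted p = 0.00779) and the inhibitory Smad6, itself induced by BMPs, by 0.73 (edgeR adjusted p = 0.00342). Neither kept its call without a scaling factor (-0.82 for Smad9 and -0.45 for Smad6, edgeR adjusted p = 0.0485 and 0.0309) or with the muscle covariate, where the differences were -1.17 and -0.65 (edgeR adjusted p = 0.0162 and 0.0161). Smurf1, the ubiquitin ligase that degrades Smad1 and Smad5, rose from 45.5 ± 3 to 73.4 ± 15.3 CPM (0.69 ± 0.112, edgeR adjusted p = 0.000125).

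Of the 12 transcriptional targets 9 were tested and 3 called, each lower in UCP1 KO than in WT BAT, where 11.4% of all genes were called lower. Atoh8 fell by 1.29 (edgeR adjusted p = 0.0041), Gata2 by 0.69 (edgeR adjusted p = 0.00731) and Id3, a direct target and inhibitor of basic helix-loop-helix factors, by 0.62 (edgeR adjusted p = 0.00636). Id1 was at 36 ± 3.86 CPM in WT and 18.1 ± 10 in UCP1 KO mice (-1.0, edgeR adjusted p = 0.0201) and was not called. Without a scaling factor Atoh8, Gata2 and Id3 were not called (edgeR adjusted p = 0.0173, 0.114 and 0.133), and with the muscle score as a covariate Gata2 (-0.54) and Id3 (-0.49) were not (edgeR adjusted p = 0.0314 and 0.0322). In dKO compared to FGF21 KO mice none of the 9 was called by edgeR, where 13.5% of all genes were. An unadjusted p under 0.05 was reached by 2 of the 9 and by 6287 of all 15729 genes. Markers of other cells moved in the same libraries, with 6 of 10 muscle genes and 5 of 6 macrophage genes higher and 2 of 6 endothelial and 2 of 6 adipocyte genes lower in UCP1 KO compared to WT BAT, and their part in the values of the lists was not tested beyond the covariate above.

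In iWAT none of the 55 pathway genes was called by edgeR in any comparison of genotypes. Between UCP1 KO and WT mice 11 had an unadjusted p under 0.05, and between UCP1 KO and dKO mice 7 did. Of all 17380 genes 2551 and 2475 did in these comparisons. The nearest to the threshold was Smad1, at -0.39 to WT (edgeR adjusted p = 0.0333) and -0.37 to dKO mice (edgeR adjusted p = 0.0475), followed by the protease Tll1 (-0.69, edgeR adjusted p = 0.043) and Gdf3 (2.42, edgeR adjusted p = 0.0526) to WT. The share of all genes called was 0.61% and 0.466% in these comparisons and 3.76% between UCP1 KO and FGF21 KO mice. In the last comparison 11 pathway genes and 5558 of all genes had an unadjusted p under 0.05.

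**Figure D5:**
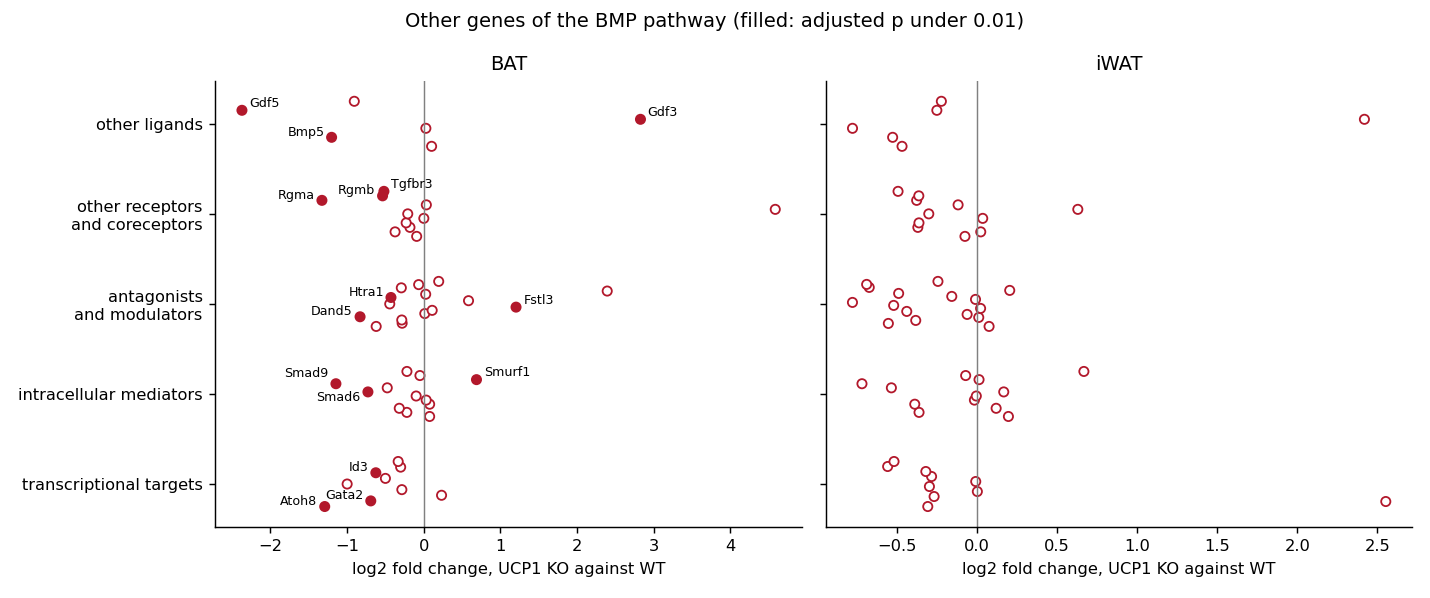
Log2 difference of each tested pathway gene in UCP1 KO compared to WT mice, by list, in BAT and iWAT. Filled and named points have an adjusted p under 0.01. In BAT 12 of the 15 filled points lie below 0 with TMM scaling, and in iWAT no point is filled. With no scaling factor 8 called genes in BAT were higher and 4 lower (22.6%, against 36.2% of all genes called).

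Mean log2 CPM over the 8 groups of BAT and iWAT was compared with that of Bmp8b for 15478 genes tested in both depots. Uncharacterised names (such as Gm, Rik and LOC) were then passed over. The 5 remaining genes that ran most like Bmp8b were Hist1h2ad (r = 0.992), Tmem82 (0.985), Nutf2 (0.984), Fam131c (0.983) and Syt9 (0.982). The 8 points share depots and libraries, so the coefficients are a description.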

How the data were processed

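Per the labels and methods, poly(A) RNA was made into strand-specific libraries, sequenced in pairs of 100 bases, aligned with STAR to mm10 (GRCm38) and counted per UCSC known gene with HTSeq. The deposited values are read counts of whole numbers without normalization; the strand option is not given in the sources used here. The members and gene lists were chosen with earlier results of these data known. All 10 members are named, and pathway genes where called in BAT between UCP1 KO and WT mice, with a few others of large difference. Each tissue was fitted with edgeR 4.0.16 in R 4.3.3 (quasi-likelihood test, TMM factors, 4 genotypes, 20 libraries), on genes that exceeded 15 counts in some library and 75 over all, with at most 10 libraries at 0. P-values were adjusted by Benjamini-Hochberg over the tissue's genes and called under 0.01. Tissues were compared in 1 fit of 80 libraries, which were treated as independent because the labels do not link libraries of 1 mouse. The fits were tested on simulated data. Alternatives were DESeq2 1.42.0, RLE factors, no scaling factor, no filter, 2 genotypes only, marker score covariates and leaving out each library. For the pathway lists these were chosen after seeing the data. One row named no gene (at most 3.42e-05% of reads) and was left out. No 2 libraries of a tissue were identical. The methods give 5 mice per genotype, without tying libraries to mice.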

Additional observations from a re-analysis of the deposited data

Results flagged for a closer look

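Of 76 groups of 5 libraries, 6 held a library whose log2 CPM lay far from the other 4, and chance gives about 1 in 20. In BAT, Bmp2 was at 0.796 CPM in FGF21 KO replicate 4, from 23 reads, with the others at 1.44 to 1.65. In iWAT, Bmp8b was at 0.0667 CPM in FGF21 KO replicate 3, from 3 reads, with none in the others. Bmp8a was at 0.0738 CPM in iWAT of UCP1 KO replicate 3, from 2 reads, with the others at 0.539 to 0.798. Bmpr2 was at 64.2 CPM in iWAT of UCP1 KO replicate 2, with the others at 86.1 to 92.3, and this was the only UCP1 KO library with a high lymph node score. In FGF21 KO replicate 2, the only FGF21 KO library with a low lymph node score, Bmpr2 was at 103 CPM (others 63.8 to 66.8) and Acvr1 at 31.8 CPM (others 18 to 20.7).

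The difference of Bmp8b between UCP1 KO and dKO mice was larger in iWAT than in BAT by 5.41 on the log2 scale, tested in the fit of 80 libraries (edgeR adjusted p = 1.69e-05).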

How the results depend on the processing

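The number of members called was within 1.5 times the reported one in 55 of 63 pairs of a comparison and an alternative other than leaving out a library, and no log2 difference changed sign. In BAT, dKO compared to FGF21 KO mice gave 1 member in place of 2 with no scaling factor and with the skeletal muscle covariate. In iWAT, UCP1 KO compared to WT mice gave 0 in place of 1 when only the 2 genotypes were fitted (Bmp8b adjusted p = 0.0387). UCP1 KO compared to dKO mice in iWAT gave 1 in place of 0 with no scaling factor, at an adjusted p under 0.05 and with DESeq2, and 2 (Bmp3 and Bmp8b) with the lymph node covariate. UCP1 loss in BAT against iWAT gave 4 (Acvr1, Bmp3, Bmpr1a and Bmpr2) in place of 0 with no scaling factor, where the share of all genes called was not counted. Pathway genes called in BAT of dKO compared to FGF21 KO mice were 4 in place of 8 with the muscle covariate. The share of pathway genes moved from 15.1% to 7.55% and that of all genes from 13.5% to 8%. The cause was not tested.

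Leaving out 1 library at a time gave 2 to 2 members in BAT for UCP1 KO compared to WT and for dKO compared to FGF21 KO mice, and 0 to 0 for UCP1 KO compared to dKO mice. In iWAT it gave 0 to 1 for UCP1 KO compared to WT, 0 to 1 for UCP1 KO compared to dKO, and 0 to 0 for dKO compared to FGF21 KO mice. The WT depots gave 8 to 9 members, the ninth being Bmpr2. UCP1 loss in BAT against iWAT gave 0 to 0, and UCP1 KO compared to dKO mice in iWAT against BAT gave 1 to 1.

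With no scaling factor, the median log2 difference of all genes moved to 0.31 in BAT of UCP1 KO compared to WT mice and to 0.23 in dKO compared to FGF21 KO mice, and the share of calls that were higher moved from 54.7% to 92% and from 49.8% to 90.9%. In iWAT the medians were -0.19 (UCP1 KO compared to WT) and -0.22 (compared to dKO), and the shares moved from 97.2% to 81.9% and from 93.8% to 75.3%. Low counts limit Bmp8b in iWAT and liver and Bmp8a in BAT and liver. No paired analysis was possible because the replicate numbers used here follow only the order of deposition and the labels link no libraries across genotypes.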
